A study of Homo sapiens with 6 samples.

Results

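The genes described here are 41 enzymes, transporters and regulators of glycolysis and of the cellular response to low oxygen, taken by gene name from a deposited table of 33539 genes. All 41 had a row, and all 41 were among the 13564 genes tested, which had a mean level of at least 0.5 FPKM (fragments scaled to gene length and to the reads of the library). The study silenced POLR1F, a subunit of RNA polymerase I, in 8505C cells, an established line from an anaplastic thyroid carcinoma. The groups were 3 libraries of cells given an siRNA against POLR1F (siPOLR1F) and 3 libraries of cells given a negative control siRNA (NC), both for 24 h, in the same medium with 10% fetal bovine serum. Bulk poly(A) RNA was sequenced, and no group was labelled as kept in low oxygen. The labels give no siRNA sequence. Nor do they say that replicates were grown as separate cultures, so each p-value reflects library-to-library spread that may be technical.

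Glycolysis converts glucose to pyruvate in the cytosol, and cells that export the pyruvate as lactate can run it at a high rate even when oxygen is present, as many carcinoma cells do. Hypoxia-inducible factors (HIF) are pairs of an oxygen-labile alpha subunit and the stable subunit ARNT. With oxygen, EGLN prolyl hydroxylases mark the alpha subunit for destruction through VHL, and without it the pair binds DNA at a short core motif and raises transcription of glucose transporters, most glycolytic enzymes, angiogenic factors and pH regulators. HIF activity is set mainly by the stability of the alpha subunit protein, which RNA levels do not report.

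Depth was alike, between 60576788 and 63038378 counts per library. POLR1F itself had 2.09, 1.42 and 1.51 FPKM in the siPOLR1F libraries, against 8.80, 8.42 and 7.64 FPKM in the NC libraries (log2 fold change -2.30, SE 0.15, edgeR adjusted p = 9.76e-05). Mitochondrially encoded genes took 4.32% to 4.85% of the counts in siPOLR1F and 4.93% to 5.15% in NC, and the part of this difference in the results below was not tested. Among thyroid markers NKX2-1 was expressed, at 25.7 to 28.8 FPKM in siPOLR1F and 41.8 to 47.2 FPKM in NC, whereas the defining markers TG, TSHR and SLC5A5 were at or near 0 in every library. HHEX had 4.28 to 4.52 FPKM in siPOLR1F and 4.34 to 5.27 FPKM in NC. PAX8 and FOXE1 were low, averaging 0.491 and 0.201 FPKM in siPOLR1F and 0.543 and 0.209 FPKM in NC. The keratins KRT8 and KRT18 were abundant, with a sum of 5 epithelial markers of 227 to 257 FPKM in siPOLR1F and 267 to 299 FPKM in NC, and CDH1 was near 0. KRT19 and EPCAM were low, averaging 0.810 and 0.638 FPKM in siPOLR1F and 0.729 and 0.762 FPKM in NC. The immune markers summed to 11.4 to 17.6 FPKM in siPOLR1F and 9.08 to 14.0 FPKM in NC, nearly all from CD68 (9.94 to 15.7 FPKM in siPOLR1F and 7.51 to 12.4 FPKM in NC) with some CD14, whereas PTPRC was near 0. The stromal markers summed to 1.03 to 1.20 FPKM in siPOLR1F and 1.20 to 1.63 FPKM in NC, mostly from COL1A1 and LUM, and COL1A2, DCN and PDGFRA were near 0 in all 6 libraries. The summed level of 4 endothelial markers was 2.37 to 5.05 FPKM in siPOLR1F and 5.62 to 6.94 FPKM in NC. Only CDH5 among them was tested, and it was lower. PECAM1, VWF and KDR were below the level for testing. They averaged 0.413, 0.441 and 0.157 FPKM in siPOLR1F and 0.292, 0.198 and 0.0669 FPKM in NC, with overlapping groups. The part of these markers in the results was not tested.

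PFKL and PFKFB3 rose and 10 members fell after POLR1F silencing (edgeR quasi-likelihood test over all tested genes, adjusted p below 0.05). Thus 10 of 41 members (24.4%) were lower and 2 of 41 (4.88%) were higher, beside 6.94% of all tested genes called lower and 10.3% called higher. The members that fell were SLC2A1, ALDOC, PFKFB4, PGK1, LDHA, PDK3, EGLN1, ADM, BNIP3 and BNIP3L. All changes were moderate, with log2 fold changes (siPOLR1F over NC) between -0.66 and 0.37 and a median over the 41 members of -0.12, against -0.01 over all tested genes. The FPKM of the groups did not overlap in 23 members, with siPOLR1F below NC in 19 (46.3%; 19% of all tested genes) and above NC in 4 (9.76%; 18.9% of all tested genes). The count of lower members was 6 without NC replicate 3 and 5 without siPOLR1F replicate 1, 2 or 3. Testing genes without a filter on low values ended the calls of SLC2A1, ALDOC, PFKFB3, EGLN1, ADM and BNIP3L. The filterByExpr default ended those of SLC2A1, ALDOC, EGLN1 and ADM, limma on log2(FPKM + 0.1) those of SLC2A1, PFKFB3, EGLN1, ADM and BNIP3L, and limma on log2(FPKM + 1) those of SLC2A1 and EGLN1. In bulk RNA, fewer cells that express a gene and less RNA per cell cannot be told apart.

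**Figure D1:**
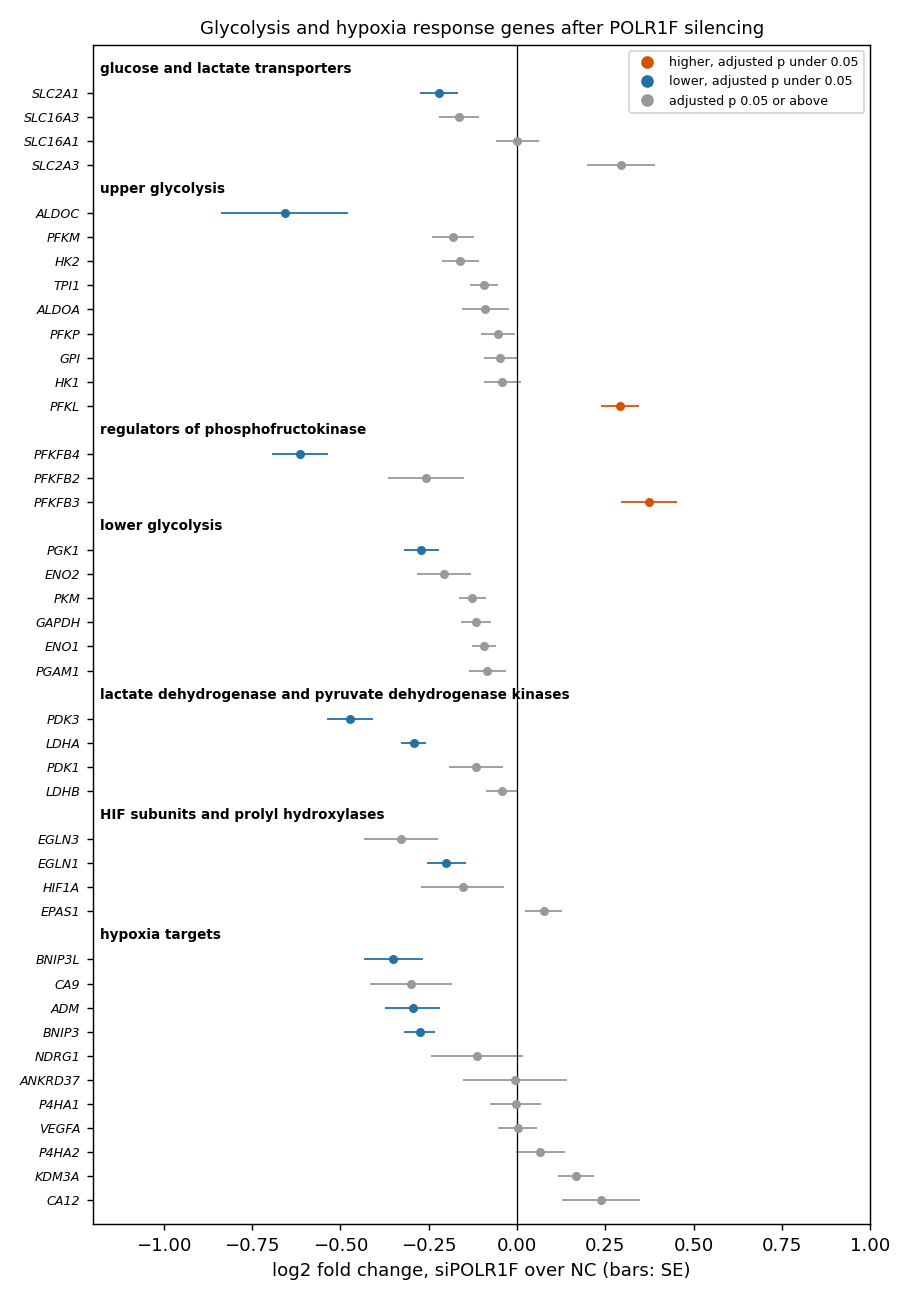
Log2 fold change of siPOLR1F over NC (x axis, bars are the SE from edgeR) for all 41 members, grouped by role and sorted within each group. Most points lie left of 0, the 10 members called lower in blue, and PFKL and PFKFB3 are called higher in orange.

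The promoters of the 5 members that kept their call under all 15 alternative analyses are shown, since HIF binds near the start of many genes of this kind. In 4 of these genes, PFKFB4, PGK1, LDHA and BNIP3, RNA was lower in siPOLR1F, and in PFKL it was higher. Each line gives 250 bases before to 50 bases after a RefSeq transcription start (GRCh38.p14), 5′ to 3′ on the strand of the gene. Capitals mark the HIF core motif, ACGTG or GCGTG, on either strand, so that CACGT and CACGC are the same motifs read on the opposite strand. The palindrome CACGTG, which also serves as an E-box for factors of the MYC family, holds ACGTG on both strands.
LDHA: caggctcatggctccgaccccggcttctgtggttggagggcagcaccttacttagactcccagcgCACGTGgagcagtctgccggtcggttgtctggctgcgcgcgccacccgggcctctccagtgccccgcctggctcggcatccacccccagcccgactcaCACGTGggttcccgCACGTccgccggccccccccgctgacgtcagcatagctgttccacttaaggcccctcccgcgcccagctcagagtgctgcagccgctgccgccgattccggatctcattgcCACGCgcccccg
PGK1: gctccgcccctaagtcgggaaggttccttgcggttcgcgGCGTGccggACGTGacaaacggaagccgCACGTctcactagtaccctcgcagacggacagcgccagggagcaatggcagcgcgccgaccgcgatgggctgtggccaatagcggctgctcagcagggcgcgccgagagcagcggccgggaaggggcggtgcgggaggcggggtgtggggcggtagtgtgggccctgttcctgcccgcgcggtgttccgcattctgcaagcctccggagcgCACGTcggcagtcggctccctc
BNIP3: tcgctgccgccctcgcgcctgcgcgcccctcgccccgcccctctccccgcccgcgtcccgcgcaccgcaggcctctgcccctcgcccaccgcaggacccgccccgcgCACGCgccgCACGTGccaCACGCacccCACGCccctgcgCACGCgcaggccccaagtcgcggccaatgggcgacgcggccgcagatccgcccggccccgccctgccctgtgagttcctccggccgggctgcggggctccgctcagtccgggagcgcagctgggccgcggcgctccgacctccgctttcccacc
PFKFB4: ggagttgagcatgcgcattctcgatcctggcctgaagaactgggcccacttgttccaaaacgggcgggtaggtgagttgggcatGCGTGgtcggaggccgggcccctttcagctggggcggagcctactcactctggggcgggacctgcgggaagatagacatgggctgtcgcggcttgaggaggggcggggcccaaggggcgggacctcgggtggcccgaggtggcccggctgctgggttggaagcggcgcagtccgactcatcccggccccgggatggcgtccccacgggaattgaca
PFKL: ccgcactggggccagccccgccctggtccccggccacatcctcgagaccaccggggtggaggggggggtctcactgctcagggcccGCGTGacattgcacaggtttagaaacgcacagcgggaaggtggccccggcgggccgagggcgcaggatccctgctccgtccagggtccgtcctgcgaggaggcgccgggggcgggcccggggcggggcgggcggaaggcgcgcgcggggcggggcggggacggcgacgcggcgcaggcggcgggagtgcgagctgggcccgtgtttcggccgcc
The LDHA window (chr11:18394313-18394612, plus strand) held CACGTG at 2 places, with ACGTG starting 184 and 86 bases before the start, and a further ACGTG on the opposite strand 73 bases before it. LDHA has another RefSeq start whose window held GCGTG but not ACGTG. The PGK1 window (chrX:78103998-78104297, plus strand) had ACGTG 202 bases before the start, and the same motif on the opposite strand 183 bases before it. The BNIP3 window (chr10:131981874-131982173, minus strand) had CACGTG, with ACGTG starting 133 bases before the start, among 4 copies of GCGTG on the opposite strand. The windows of PFKFB4 (chr3:48556754-48557053, minus strand) and PFKL (chr21:44299803-44300102, plus strand) each had GCGTG, at 166 and 164 bases before the start, and no ACGTG.

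The RefSeq promoter table held a window for 35 members. ACGTG occurred in at least 1 window of 6 of 9 members called lower, 1 of 2 called higher and 13 of 24 not called, and in 24.9% of all 27305 genes with a window. By window, it occurred in 38.1% of the 63 windows of members and in 21.4% of all 35116 windows. GCGTG occurred in 42.9% of the windows of members and in 36.5% of all windows, and CACGTG in 12.7% and 7.26%. Members had more windows per gene than other genes, which by itself raises the share of genes with a match. A match is a run of letters and not a site shown to bind HIF.

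At the entry and exit of the pathway, the glucose transporter SLC2A1 (GLUT1; ENSG00000117394, chromosome 1, 42925353 to 42958868) was lower. Positions of genes are those of the deposited table, on GRCh38. SLC2A1 had 31.8, 30.7 and 32.1 FPKM in siPOLR1F, against 34.6, 37.6 and 38.5 FPKM in NC. The groups did not overlap (log2 fold change -0.22, SE 0.05, edgeR adjusted p = 0.0268). This call was lost without NC replicate 2 or 3, or without siPOLR1F replicate 1, 2 or 3 (edgeR adjusted p between 0.0664 and 0.0974), within a range of 0.00463 to 0.122 over all alternatives. SLC2A3 (GLUT3), a transporter of higher affinity, stood the other way, with 9.67, 9.13 and 8.94 FPKM in siPOLR1F and 7.45, 6.65 and 8.64 FPKM in NC. Its edgeR adjusted p was 0.0681 (0.0166 to 0.183 over its alternatives), below 0.05 in 3 of 15 alternatives, among them DESeq2 and leaving out NC replicate 3. The lactate exporter SLC16A3 (MCT4) had 33.8, 34.6 and 36.1 FPKM in siPOLR1F and 36.8, 41.8 and 39.1 FPKM in NC, without overlap, and its edgeR adjusted p was 0.0827. Its gene overlaps CSNK1D on the opposite strand, so reads may be divided between them. The lactate transporter SLC16A1 (MCT1) averaged 24.5 ± 1.14 FPKM in siPOLR1F and 24.6 ± 1.46 FPKM in NC (SD, n = 3 each), a log2 fold change of 0.00 with an SE of 0.06.

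In upper glycolysis, from glucose phosphorylation to triose phosphates, PFKL rose and ALDOC fell among 9 members. These are 11.1% higher and 11.1% lower, near the 10.3% and 6.94% of all tested genes. PFKL (ENSG00000141959, chromosome 21, 44300051 to 44327376), the liver-type subunit of the phosphofructokinase that commits glucose to glycolysis, had 26.6, 28.9 and 27.9 FPKM in siPOLR1F and 23.5, 21.9 and 23.1 FPKM in NC. The lowest siPOLR1F library was above the highest NC library, and the log2 fold change was 0.29 (SE 0.05, edgeR adjusted p = 0.00827). Its sister subunits did not pass the test. The muscle type PFKM had 11.3, 12.03 and 11.7 FPKM in siPOLR1F, below 13.8, 12.5 and 13.7 FPKM in NC (log2 fold change -0.18, SE 0.06, edgeR adjusted p = 0.0701). The platelet type PFKP, the most abundant of these subunits, averaged 56.4 ± 2.75 FPKM in siPOLR1F and 58.8 ± 1.07 FPKM in NC (SD, n = 3 each).

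ALDOC (ENSG00000109107, chromosome 17, 28573115 to 28576948), the brain-type aldolase, was present at a low level, with 1.05, 1.12 and 0.793 FPKM in siPOLR1F and 1.69, 1.496 and 1.54 FPKM in NC. The groups did not overlap (log2 fold change -0.66, SE 0.18, edgeR adjusted p = 0.0386). The call was lost when any library was left out (edgeR adjusted p between 0.0588 and 0.110, and between 0.0144 and 0.112 over all alternatives). The whole gene also lies within RSKR on the same strand, which had 317% of the counts of ALDOC and a log2 fold change of 0.34. The main aldolase of these cells, ALDOA, had 361, 417 and 388 FPKM in siPOLR1F and 387, 409 and 449.7 FPKM in NC, with overlapping groups. The triose phosphate isomerase TPI1 had 306, 309.8 and 313 FPKM in siPOLR1F and 326, 333 and 338 FPKM in NC, without overlap but with an edgeR adjusted p of 0.134. Of the hexokinases, HK2 averaged 30.4 ± 1.41 FPKM in siPOLR1F and 34.1 ± 0.435 FPKM in NC (SD, n = 3 each; edgeR adjusted p = 0.0672). HK1 averaged 41.2 ± 1.94 FPKM in siPOLR1F and 42.6 ± 1.54 FPKM in NC, and the isomerase GPI 61.5 ± 1.73 FPKM in siPOLR1F and 63.8 ± 2.77 FPKM in NC (SD, n = 3 each), both with overlapping groups.

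The bifunctional PFKFB enzymes make and degrade fructose 2,6-bisphosphate, the strongest activator of phosphofructokinase, and PFKFB4 and PFKFB3 changed in opposite directions. PFKFB4 (ENSG00000114268, chromosome 3, 48517684 to 48561972) had 4.55, 4.61 and 4.46 FPKM in siPOLR1F, against 7.36, 6.28 and 7.32 FPKM in NC. The groups were well separated, and the log2 fold change was -0.61 (a change of -34.7%; SE 0.08, edgeR adjusted p = 0.00189). PFKFB3 (ENSG00000170525, chromosome 10, 6144934 to 6254644), the isozyme with the highest kinase activity, had 13.3, 12.8 and 14.0 FPKM in siPOLR1F and 9.18, 11.2 and 10.7 FPKM in NC. Its log2 fold change was 0.37 (SE 0.08, edgeR adjusted p = 0.0156), and the call was lost without siPOLR1F replicate 1 (0.0518) or replicate 3 (0.0629), within 1.98e-04 to 0.0769 over all alternatives. PFKFB2, at 0.979 ± 0.0372 FPKM in siPOLR1F and 1.17 ± 0.101 FPKM in NC (SD, n = 3 each), did not pass (edgeR adjusted p = 0.135). It overlaps YOD1 on the opposite strand, which had 398% of the counts of PFKFB2, so reads may be divided between them.

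**Figure D2:**
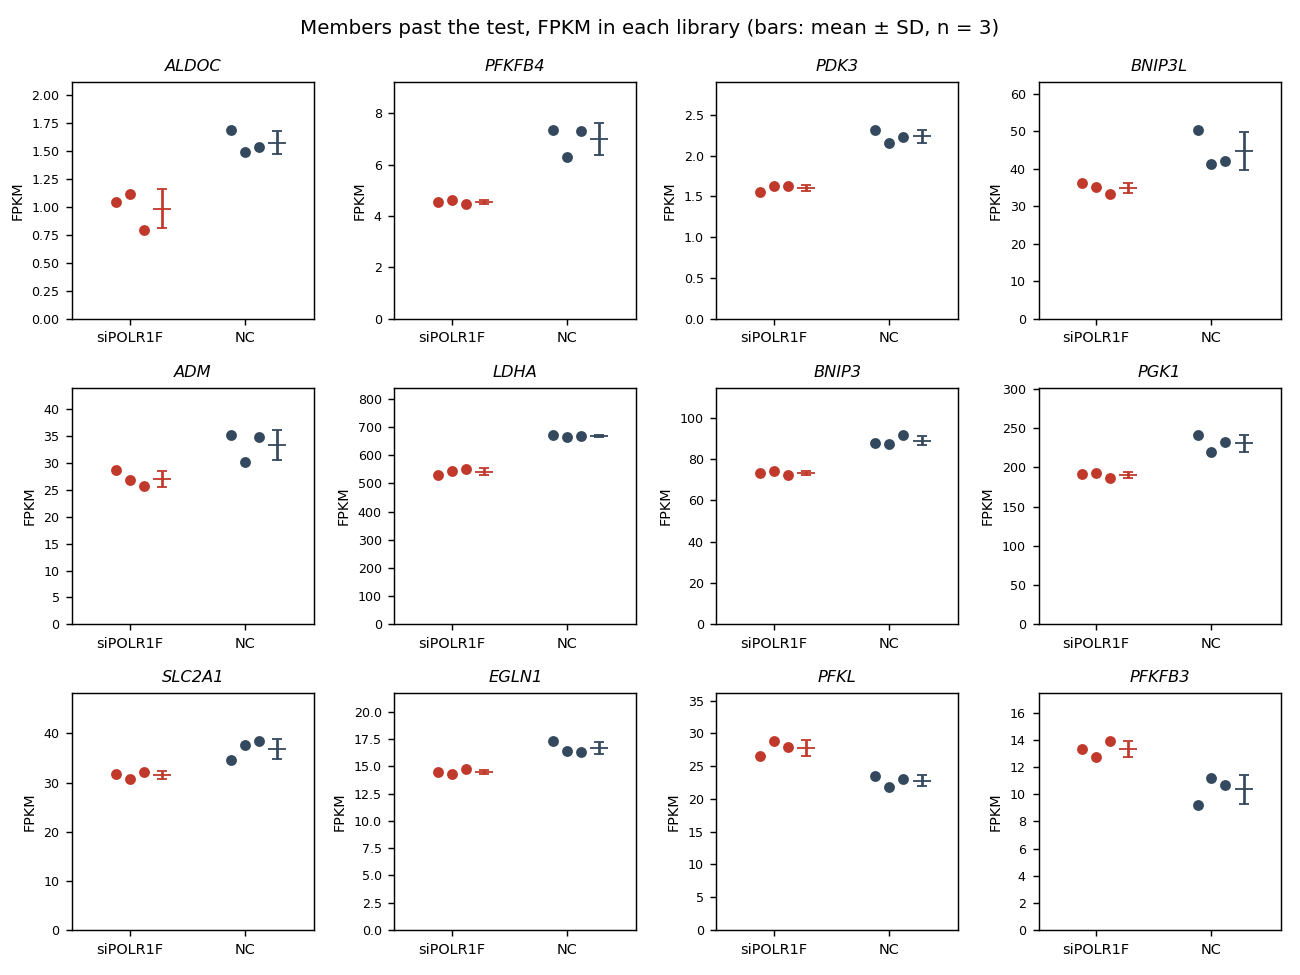
FPKM of the 12 members past the test in each siPOLR1F library (red) and each NC library (dark blue), with the mean and SD of each group (n = 3) beside the points and every axis starting at 0. In all 12 the points of the groups do not overlap, and PFKL and PFKFB3 are the panels with siPOLR1F above NC.

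In lower glycolysis, PGK1 alone of 6 members passed the test, as lower (16.7%, beside 6.94% of all tested genes). All 6 had a log2 fold change below 0, as did 52.5% of all tested genes. PGK1 (ENSG00000102144, chromosome X, 77910739 to 78129295), which makes the first ATP of the pathway, had 191, 193 and 186 FPKM in siPOLR1F and 241, 219 and 232 FPKM in NC. Every siPOLR1F library was below every NC library, and the log2 fold change was -0.27 (SE 0.05, edgeR adjusted p = 0.00812). The deposited gene model begins well before the start whose promoter is shown and overlaps ATP7A on the same strand, which had 1.01% of the counts of PGK1. GAPDH, the most abundant member, had 1838, 1863 and 1838 FPKM in siPOLR1F and 2013, 1911 and 2116 FPKM in NC. The groups did not overlap, yet the difference did not pass (log2 fold change -0.12, SE 0.04, edgeR adjusted p = 0.0934), except without NC replicate 2 (0.0450; 0.0450 to 0.390 over all alternatives). Enolase ENO1 had 1116, 1149 and 1144 FPKM in siPOLR1F and 1215, 1185 and 1256 FPKM in NC (edgeR adjusted p = 0.0984), again without overlap. Pyruvate kinase PKM had 291, 309.8 and 310.1 FPKM in siPOLR1F and 325, 336 and 339 FPKM in NC (edgeR adjusted p = 0.0580). The mutase PGAM1 and the neuronal enolase ENO2 had overlapping groups and did not pass (PGAM1 edgeR adjusted p = 0.304, ENO2 0.0959).

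Several of these enzymes have processed pseudogenes, to which the authors' counting could have sent some reads. The pseudogene rows named after a member held at most 1.17% of that member's counts (TPI1), 0.855% for BNIP3, 0.264% for LDHA and 0.248% for GAPDH. The sources used here do not say how reads with several matches were counted.

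Lactate dehydrogenase A fell while its partner B did not pass the test. LDHA (ENSG00000134333, chromosome 11, 18394560 to 18408218), which favours the reduction of pyruvate to lactate, had 528, 546 and 553 FPKM in siPOLR1F, against 671, 665 and 667 FPKM in NC. The NC libraries lay within a narrow band and each siPOLR1F library was well below it. LDHA had the smallest adjusted p of all members (log2 fold change -0.29, SE 0.03, edgeR adjusted p = 0.00119). LDHB, which favours the reverse reaction, had 210.5, 218 and 227 FPKM in siPOLR1F and 227, 231 and 220.1 FPKM in NC, a log2 fold change of -0.04 with an SE of 0.05. The pyruvate dehydrogenase kinases switch off the entry of pyruvate into the mitochondrial citric acid cycle. PDK3 (ENSG00000067992, chromosome X, 24465244 to 24550466) had 1.55, 1.63 and 1.62 FPKM in siPOLR1F and 2.32, 2.16 and 2.23 FPKM in NC (log2 fold change -0.47, SE 0.07, edgeR adjusted p = 0.00267), a low level at which the groups stood clearly apart. PDK1, the isozyme best known as a HIF target, averaged 5.30 ± 0.434 FPKM in siPOLR1F and 5.77 ± 0.280 FPKM in NC (SD, n = 3 each), with overlapping groups and an edgeR adjusted p of 0.323. Its antisense gene PDK1-AS1, with 6.08% of the counts of PDK1, cannot be told apart from it where they overlap without a stated strand setting.

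Per length, the order of the members by level was nearly the same in both groups, from GAPDH, ENO1 and LDHA at the top to PFKFB2, EGLN3 and ALDOC at the bottom. ALDOA, PKM and TPI1 followed at 303.6 to 415 FPKM on average, and the neighbours PKM and TPI1 did not differ beyond their spread in NC (333 ± 7.53 and 332 ± 6.34 FPKM; SD, n = 3 each). Summed over the 17 enzymes from the hexokinases to lactate dehydrogenase, FPKM came to 5292, 5489 and 5444 in siPOLR1F, against 5889.6, 5793 and 6123 in NC. As a share of all FPKM in the library the sum was 2.19%, 2.27% and 2.24% in siPOLR1F and 2.39%, 2.34% and 2.47% in NC. GAPDH accounted for 31.6% of the summed difference, LDHA for 23.8%, ENO1 for 15.7% and PGK1 for 7.66%. Most of it thus lay in a few abundant enzymes, which weigh most in such a sum. Of these, GAPDH and ENO1 did not pass the test.

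**Figure D3:**
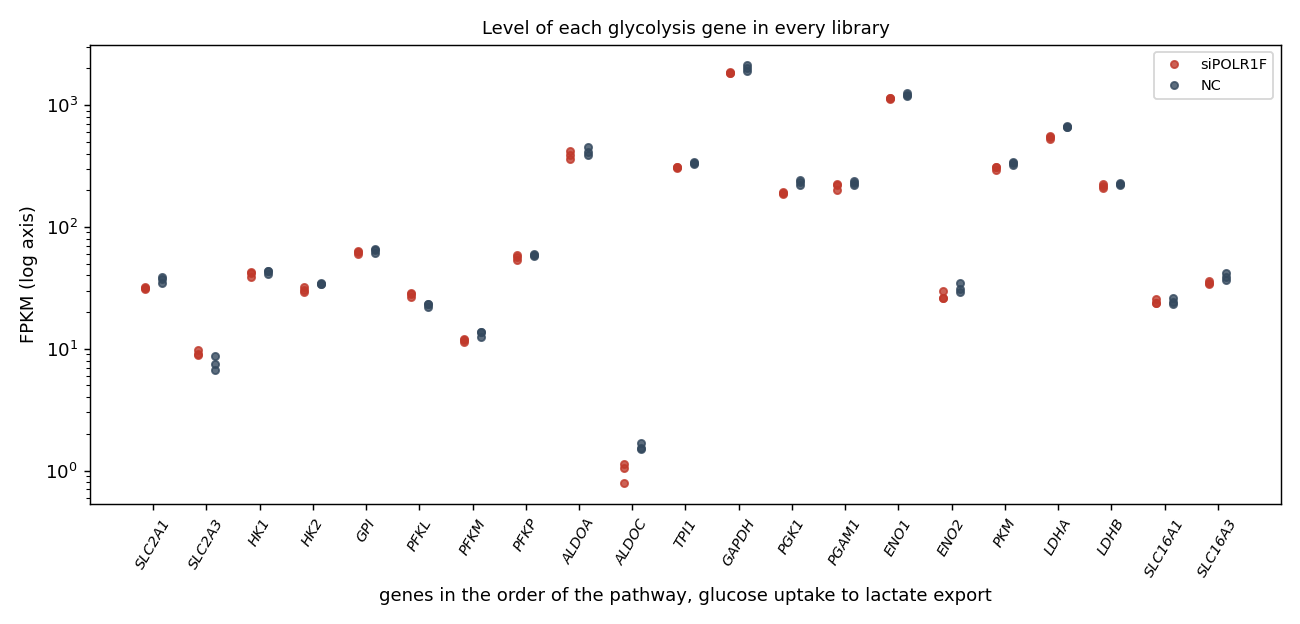
FPKM (log axis) of 21 transporters and enzymes in pathway order from glucose uptake to lactate export, with 3 siPOLR1F libraries (red, left) and 3 NC libraries (dark blue, right) per gene. GAPDH and ENO1 exceed 1000 FPKM, ALDOC lies near 1 FPKM, and the offset between groups is small beside the differences between genes.

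The balance between related genes was set out for 11 pairs as the log2 ratio of their FPKM in each library, with no test. ENO2 over ENO1 and EPAS1 over HIF1A overlapped between the groups. Most of the other pairs hold a gene already called, and no share of non-overlapping ratios over other gene pairs was computed. PFKFB4 over PFKFB3 averaged -1.55 ± 0.09 in siPOLR1F and -0.57 ± 0.26 in NC (SD, n = 3 each), a difference of -0.99, the widest of the set. SLC2A3 over SLC2A1 averaged -1.77 ± 0.07 in siPOLR1F and -2.29 ± 0.18 in NC, a difference of 0.52. PFKM over PFKL averaged -1.25 ± 0.02 in siPOLR1F and -0.78 ± 0.03 in NC, and PFKP over PFKL 1.02 ± 0.01 in siPOLR1F and 1.37 ± 0.04 in NC, both lower in siPOLR1F without overlap. LDHB over LDHA averaged -1.31 ± 0.02 in siPOLR1F and -1.56 ± 0.04 in NC, a difference of 0.25. ALDOC over ALDOA averaged -8.63 ± 0.27 in siPOLR1F and -8.04 ± 0.18 in NC, a difference of -0.59, with ALDOC at a low level. PDK3 over PDK1 differed by -0.35, SLC16A1 over SLC16A3 by 0.16 and HK2 over HK1 by -0.12, siPOLR1F minus NC.

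**Figure D4:**
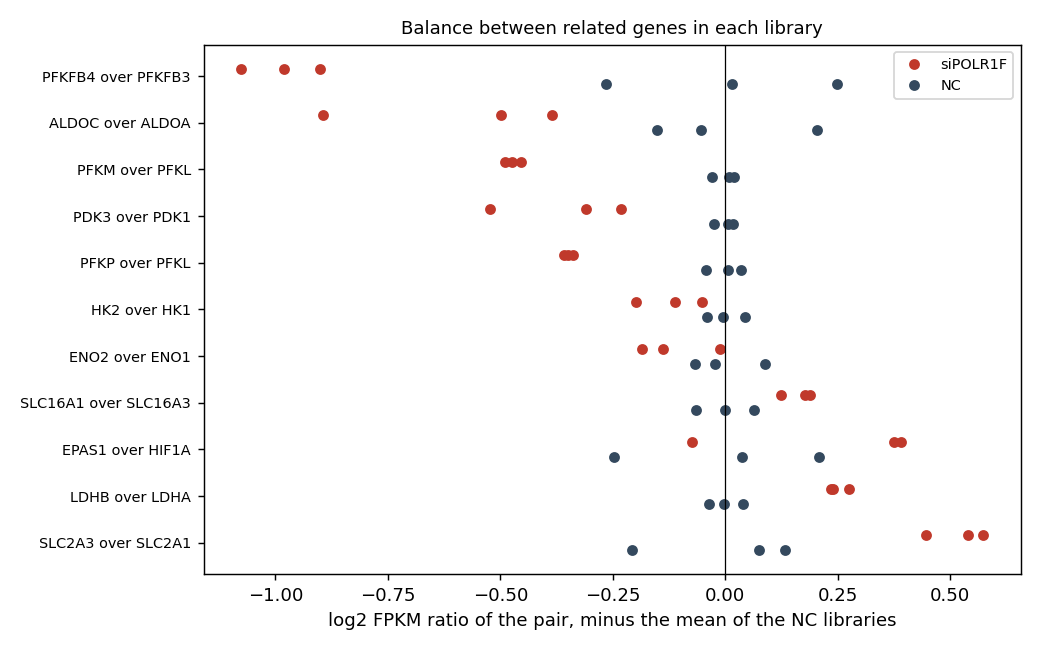
Log2 ratio of FPKM between 2 related genes in each library, minus the mean of the NC libraries for that pair (x axis), for siPOLR1F (red, upper) and NC (dark blue, lower). PFKFB4 over PFKFB3 lies furthest to the left and SLC2A3 over SLC2A1 furthest to the right, and only ENO2 over ENO1 and EPAS1 over HIF1A overlap between groups.

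The genes of the oxygen sensor itself showed small differences. HIF1A, which encodes the alpha subunit of HIF-1, had 94.9, 74.4 and 75.5 FPKM in siPOLR1F and 104, 87.9 and 81.8 FPKM in NC. The groups overlapped, replicate 1 was the highest in each group, and the log2 fold change was -0.15 (SE 0.12, edgeR adjusted p = 0.401). EPAS1, which encodes the HIF-2 alpha subunit, had 26.6, 28.8 and 28.9 FPKM in siPOLR1F and 25.9, 26.7 and 27.9 FPKM in NC (log2 fold change 0.08, SE 0.05, edgeR adjusted p = 0.358). The prolyl hydroxylase EGLN1 (ENSG00000135766, chromosome 1, 231363751 to 231422287), both a regulator and a target of HIF, fell, with 14.5, 14.3 and 14.7 FPKM in siPOLR1F and 17.4, 16.4 and 16.4 FPKM in NC. Its log2 fold change was -0.20 (SE 0.05, edgeR adjusted p = 0.0374), and the call was lost when any library was left out (0.0547 to 0.122, and 0.0156 to 0.122 over all alternatives). The hypoxia-induced hydroxylase EGLN3 was low, at 1.18 ± 0.0643 FPKM in siPOLR1F and 1.497 ± 0.0907 FPKM in NC (SD, n = 3 each; edgeR adjusted p = 0.0664).

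Of the 11 hypoxia targets outside glycolysis, ADM, BNIP3 and BNIP3L fell, none of the 11 rose, and 8 did not pass. This is 27.3% lower and 0% higher, beside 6.94% and 10.3% of all tested genes, and the median log2 fold change was -0.01 both in the list and over all tested genes. BNIP3 (ENSG00000176171, chromosome 10, 131967684 to 131981965), a receptor for the removal of mitochondria by autophagy, had 73.3, 74.1 and 72.1 FPKM in siPOLR1F and 87.9, 87.5 and 91.6 FPKM in NC. Both groups were tight and did not overlap (log2 fold change -0.28, SE 0.04, edgeR adjusted p = 0.00506). Its relative BNIP3L (NIX; ENSG00000104765, chromosome 8, 26383054 to 26413127) had 36.1, 35.1 and 33.3 FPKM in siPOLR1F and 50.4, 41.3 and 42.1 FPKM in NC (log2 fold change -0.35, SE 0.08, edgeR adjusted p = 0.0240). This call was lost without siPOLR1F replicate 1 (0.0518), replicate 2 (0.0682) or replicate 3 (0.0891), within 6.99e-04 to 0.0998 over all alternatives. The vasodilator peptide gene ADM (ENSG00000148926, chromosome 11, 10305073 to 10307397) had 28.6, 26.8 and 25.7 FPKM in siPOLR1F and 35.2, 30.2 and 34.8 FPKM in NC (log2 fold change -0.30, SE 0.08, edgeR adjusted p = 0.0347). The call was lost without NC replicate 1 or 3, or without siPOLR1F replicate 1, 2 or 3 (0.0505 to 0.120, and 0.00492 to 0.120 over all alternatives).

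The other hypoxia targets did not pass in edgeR. The membrane carbonic anhydrase CA9, whose promoter is used as a reporter of HIF-1, had 109, 104 and 90.7 FPKM in siPOLR1F and 137, 103 and 136 FPKM in NC (log2 fold change -0.30, SE 0.12, edgeR adjusted p = 0.113). NC replicate 2 lay within the siPOLR1F range, and without it the adjusted p was 0.0197; DESeq2 gave 0.0303 (0.0197 to 0.344 over all alternatives). The angiogenic factor VEGFA had 6.22, 6.48 and 6.48 FPKM in siPOLR1F and 6.53, 6.11 and 6.60 FPKM in NC, with overlapping groups and a log2 fold change of 0.00 with an SE of 0.05. The collagen prolyl hydroxylase P4HA1 averaged 29.7 ± 0.427 FPKM in siPOLR1F and 29.9 ± 2.68 FPKM in NC (SD, n = 3 each). Its relative P4HA2 had a log2 fold change of 0.07 (SE 0.07), and the stress-response gene NDRG1 one of -0.11 (SE 0.13). The histone demethylase KDM3A was above NC in each siPOLR1F library, at 7.03 ± 0.0868 FPKM in siPOLR1F and 6.30 ± 0.173 FPKM in NC (SD, n = 3 each; edgeR adjusted p = 0.0551). KDM3A passed with DESeq2 (0.0321) and with the filterByExpr default (0.0457), within 0.0321 to 0.150 over all alternatives. CA12, another membrane carbonic anhydrase, averaged 2.95 ± 0.396 FPKM in siPOLR1F and 2.51 ± 0.191 FPKM in NC, and ANKRD37 2.07 ± 0.262 FPKM in siPOLR1F and 2.09 ± 0.0299 FPKM in NC (SD, n = 3 each), both with overlapping groups. ANKRD37 overlaps UFSP2 on the opposite strand, which had 558% of its counts. Overlaps on the opposite strand with genes of fewer counts included those of P4HA2 with PDLIM4 (66.0% of the counts of P4HA2), PFKM with SENP1 (30.8%) and CA9 with ARHGEF39 (23.5%).

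Hypoxia targets outside the 41 members were set beside them. Their list, like that of the members, was chosen with earlier results of these data known, so it is not independent support for the members. Of 30 such genes 27 were tested, 11 fell, 2 rose and 14 did not pass, with a median log2 fold change of -0.13. These are 40.7% lower and 7.41% higher, beside 6.94% and 10.3% of all tested genes. FUT11, a fucosyltransferase and frequent member of hypoxia signatures, had 2.68, 2.90 and 2.92 FPKM in siPOLR1F and 4.79, 4.61 and 5.16 FPKM in NC (log2 fold change -0.77, SE 0.08, edgeR adjusted p = 6.85e-04). INSIG2, which holds back sterol synthesis, fell by 0.73 on the log2 scale (SE 0.07, edgeR adjusted p = 4.35e-04), and the retinoid-inducible receptor gene GPRC5A by 0.43 (SE 0.05, edgeR adjusted p = 7.91e-04). ERO1A, the oxidase that forms disulfides in the endoplasmic reticulum and a HIF target, rose. It had 27.5, 26.2 and 26.7 FPKM in siPOLR1F and 18.5, 15.8 and 14.97 FPKM in NC (log2 fold change 0.71, SE 0.08, edgeR adjusted p = 0.00107).

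**Figure D5:**
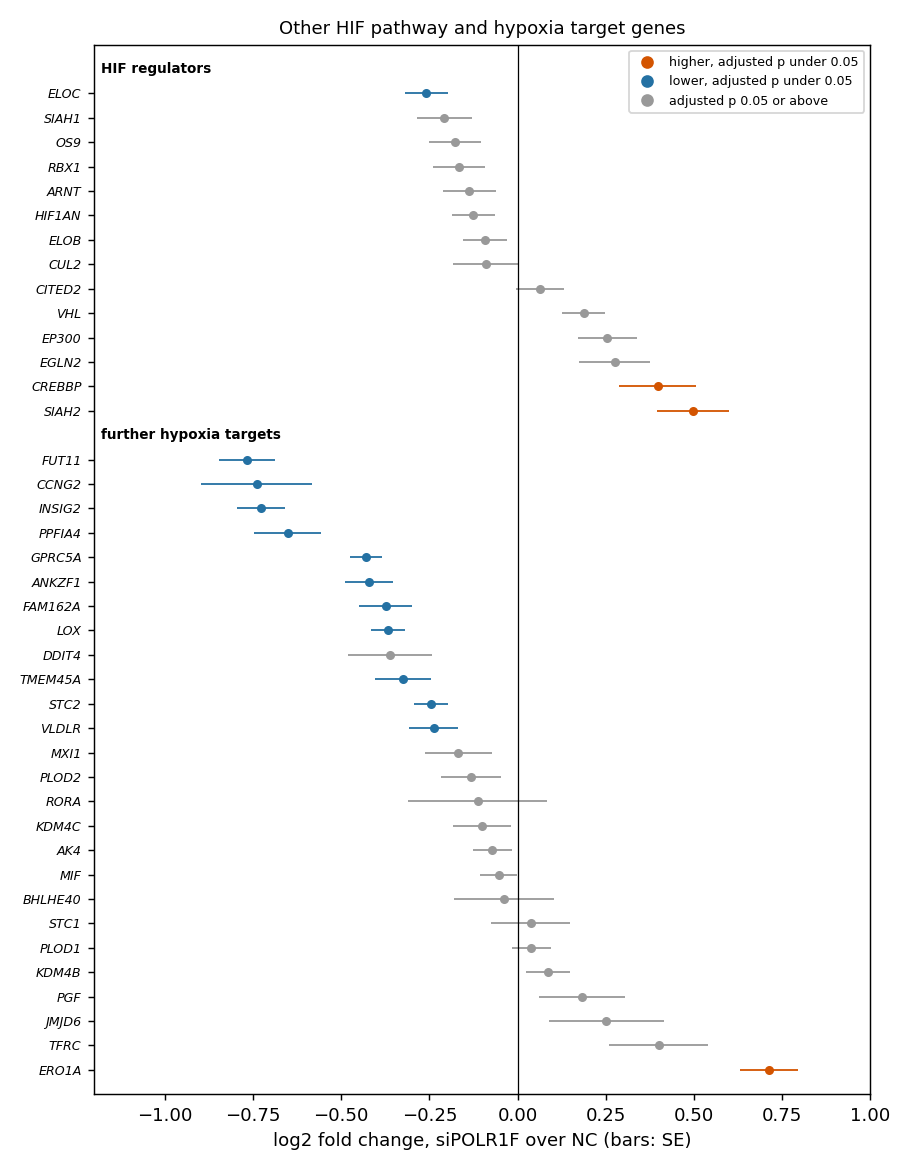
Log2 fold change of siPOLR1F over NC (x axis, bars are the SE from edgeR) for 14 tested regulators of HIF and 26 of the 27 tested further hypoxia targets. FUT11, CCNG2, INSIG2 and PPFIA4 lie furthest to the left and ERO1A furthest to the right.

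Of 14 tested regulators of HIF, SIAH2 and CREBBP rose, ELOC fell and 11 did not pass, that is 14.3% higher and 7.14% lower, near the 10.3% and 6.94% of all tested genes. SIAH2, a ubiquitin ligase that degrades EGLN hydroxylases, had 20.7, 22.0 and 23.9 FPKM in siPOLR1F and 13.4, 17.2 and 16.8 FPKM in NC (log2 fold change 0.50, SE 0.10, edgeR adjusted p = 0.0130). Without siPOLR1F replicate 3 its adjusted p was 0.0538 (2.46e-05 to 0.0708 over all alternatives). CREBBP, a coactivator of HIF and many other factors, rose by 0.40 (SE 0.11, edgeR adjusted p = 0.0392), a call lost when any library except NC replicate 2 was left out (0.0542 to 0.130, and 0.00168 to 0.165 over all alternatives). ELOC, a subunit of the VHL ligase, fell by 0.26 (SE 0.06, edgeR adjusted p = 0.0220), and lost the call without NC replicate 2 (0.0533) or siPOLR1F replicate 1, 2 or 3 (0.0513 to 0.0765, and 0.00289 to 0.0765 over all alternatives).

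Routes that follow or branch from glycolysis had few genes past the test among those described. Of 12 tested genes that carry pyruvate into mitochondria or control its entry, the pyruvate carrier MPC2 (log2 fold change -0.29, SE 0.08) and the pyruvate dehydrogenase subunit PDHX (-0.35, SE 0.07) fell and 10 did not pass. That is 16.7% lower and 0% higher, beside 6.94% and 10.3% of all tested genes, with a median log2 fold change of -0.18. Without overlap, siPOLR1F lay below NC in 7 of the 12 (58.3%; 19% of all tested genes). It lay above NC in 1 (8.33%; 18.9% of all tested genes). MPC2 lost its call without NC replicate 2 or 3, or without siPOLR1F replicate 1, 2 or 3 (edgeR adjusted p between 0.0688 and 0.127), and PDHX without siPOLR1F replicate 2 (0.0532), within 0.0179 to 0.127 and 3.34e-04 to 0.0532 over all alternatives. Of 11 tested genes of glycogen and gluconeogenesis, the glycogen synthase GYS1 rose by 0.30 (SE 0.07) and UGP2, which makes the glycogen precursor UDP-glucose, fell by 0.32 (SE 0.07). That is 9.09% higher and 9.09% lower, beside 10.3% and 6.94% of all tested genes. GYS1 and UGP2 both lost the call without siPOLR1F replicate 2 (edgeR adjusted p = 0.0664 and 0.0530) or replicate 3 (0.0621 and 0.0588), within 6.04e-04 to 0.0732 for GYS1 and 4.82e-04 to 0.0588 for UGP2. None of 7 tested further isozymes and partners passed in edgeR, DESeq2 or limma, and 0 of 7 had an unadjusted edgeR p below 0.05. They include the monocarboxylate transporter chaperone BSG at 137 ± 3.18 FPKM in siPOLR1F and 135 ± 8.89 FPKM in NC, and the glucokinase ADPGK at 9.42 ± 0.657 FPKM in siPOLR1F and 10.0 ± 0.213 FPKM in NC (SD, n = 3 each).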

How the data were processed

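Poly(A) RNA of 3 siPOLR1F and 3 NC libraries of 8505C cells was sequenced as paired reads of 150 bases, per the labels' protocols. The authors deposited 1 table with a count (whole reads per gene, not normalized) and an FPKM value for every gene in each library. The submitters' processing notes name GRCh38 with StringTie, HISAT2 and fastp; of versions, annotation and strand setting the sources used here say nothing. Groups, replicate numbers and columns were taken from the labels. Counts were tested with edgeR 4.0.16 in R 4.3.3 (TMM factors, glmQLFit, glmQLFTest) in the 13564 genes whose FPKM averaged 0.5 or more, which held 99.4% of the counts. P-values were adjusted by Benjamini-Hochberg over all tested genes, with a threshold of 0.05. The SE is the size of the log2 fold change over the square root of F. The functions were tested on simulated data. Alternatives were DESeq2 1.42.0, limma 3.58.1 on log2(FPKM + 1) and log2(FPKM + 0.1), other scalings and filters, a replicate block and each library left out. Named genes were the members past the test, the most abundant 2 of each role group, and up to 4 genes per further list with the smallest adjusted p, or its 2 most abundant. CCNG2, PPFIA4 and members named beyond this rule were chosen after their values were seen. Some genes of the further lists enter the counts but are not reported here. The members and lists were chosen with earlier results of these data known. The deposited FPKM followed the counts with 1 factor per library and gene (median deviation 0.0202%), and libraries of a group differed by more than sampling noise in chi-square tests. Promoters came from RefSeq tables (GRCh38.p14).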

Additional observations from a re-analysis of the deposited data

How the results depend on the processing

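No value of a called gene changed sign under any of the 15 alternatives, and 5 of the 12 called members kept the call under all 15, while PDK3 kept it under all 14 that could fit it (it lies below the filter of a mean FPKM of at least 5). Of members, 2 were higher and 10 lower in the reported analysis. DESeq2 called 4 higher and 15 lower, limma on log2(FPKM + 0.1) 1 higher, and no filter on low values 1 higher and 5 lower, and filterByExpr defaults 6 lower; leaving out 1 library gave 1 to 3 higher and 5 to 10 lower. Of all tested genes, 1391 were higher and 942 lower. The count of higher genes was 905 with limma on log2(FPKM + 0.1); without a filter on low values 663 were higher and 313 lower, and leaving out 1 library gave 730 to 1326 higher and 423 to 841 lower. Of genes in the further lists, 5 were higher and 16 lower. There DESeq2 gave 9 higher and 22 lower, limma on log2(FPKM + 0.1) 2, a mean FPKM of at least 5 gave 8, and no filter 1 higher and 7 lower, and leaving out 1 library gave 2 to 10 higher and 8 to 15 lower. With the replicate block 3 members were higher and 11 lower (SLC2A3 at an adjusted p of 0.0454 and PKM at 0.0300 were added), 8 further genes were higher and 18 lower, and 1517 and 1125 of all tested genes. Same-numbered libraries correlated in their deviations from the group means by 0.294, 0.0284 and 0.283 for replicates 1, 2 and 3, and each library correlated best with its own number, a hint from the data and not the design. Since replicate 2 stayed under 0.1, the numbers were not taken to pair the libraries. Replicate 2 of each group correlated by only -0.0188 to 0.0284 with any library of the other group, so it cannot decide on pairing. The cause of these changes was not tested, other than that leaving out a library leaves fewer samples and the filters change how many genes are tested. At this depth each called member had at least 146 counts in every library (the lowest being ALDOC), and p-values and SDs rest on 3 libraries a group.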

Other observations

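Within the NC group, replicate 2 was often the lowest for hypoxia targets. It was the lowest NC library in 9 of the 11 hypoxia targets (81.8%), in 22 of the 41 members (53.7%) and in 31.2% of all tested genes. In some targets the gap was narrow, as in BNIP3 (87.5 FPKM against 87.9 FPKM in NC replicate 1) and KDM3A (6.18 FPKM against 6.22 FPKM in NC replicate 1). NDRG1 had 48.6, 50.7 and 41.5 FPKM in siPOLR1F and 56.4, 40.3 and 56.3 FPKM in NC, and CA9 followed the same order in NC. Among the siPOLR1F libraries, replicate 3 was the lowest in 6 of the 11 targets (54.5%), against 30.1% of all tested genes. Without NC replicate 2, 2 members were called higher and 10 lower, but not the same 10. SLC2A1, ALDOC and EGLN1 lost the call, and PFKM (edgeR adjusted p = 0.0387), GAPDH (0.0450) and CA9 (0.0197) gained it. PDK1-AS1, which overlaps PDK1 on the opposite strand, was lower, with 1.62 FPKM on average in siPOLR1F and 2.44 FPKM in NC (log2 fold change -0.58; edgeR adjusted p = 0.0346), and without a stated strand setting its reads and those of PDK1 cannot be told apart. PDK1-AS1 and the order of the NC libraries were taken up after their values were seen.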
